A study of Mus musculus with 7 samples.

Results

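The Gimap genes encode GTPases of immunity-associated proteins, and they were examined here as 8 members, Gimap1, Gimap3, Gimap4, Gimap5, Gimap6, Gimap7, Gimap8 and Gimap9, of the 50686 genes in the deposited tables. The members were chosen by gene symbol, as a family selected on the values of old against young mice in these same libraries, so their age differences are a description and support no claim about the family. Microglia rich in lipid droplets were sorted from C57BL/6 male mice on CD11b, CD45 and Bodipy, a dye of neutral lipids, with 4 Young libraries (14C, 18C, 23C and 29C, from mice of 3 to 4 months) and 3 Old libraries (2posI, 3posI and 4posI, from mice of 21 to 22 months). Mice of both ages received no drug and had undergone a 45 min occlusion of the middle cerebral artery 4 days earlier, and the cells of both were Bodipy+. Each library came from 1 mouse and was made with Smart-seq2 for low input without strand information, so the comparison covers lipid-rich ischemic microglia of males and has no nonischemic or Bodipy- counterpart among these libraries. Total expected counts, the estimated read counts of RSEM, ranged from 36574083 to 53002386.

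GIMAP proteins bind GTP through a domain of the AIG1 type, and many of them sit on intracellular membranes such as mitochondria, lysosomes and the endoplasmic reticulum. They are best known from lymphocytes, where loss of Gimap5 or Gimap1 shortens the life of T cells and B cells, and some family members bind proteins of the Bcl2 family or of the autophagy machinery. Their transcripts are also found in endothelial and myeloid cells.

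The 8 genes lie side by side within 124 kb of chromosome 6, at chr6:48647234-48770851 in GRCm38. In the order of GENCODE vM21 they are Gimap8, Gimap9, Gimap4, Gimap6, Gimap7, Gimap1, Gimap5 and Gimap3, with 6 on the plus strand and Gimap6 and Gimap3 on the minus strand. Gimap3 (chr6:48764464-48770851) ends the row, and Gimap5 (chr6:48746197-48754210) is its nearest neighbour. These neighbours are close paralogs. Their coding sequences aligned over 901 bases with 89.8% identity, whereas the next most similar pair, Gimap7 and Gimap9, shared 65.1% of 876 aligned bases. The stretch around the longest run of identical coding bases, 140 bases, is shown because reads within it cannot be given to 1 of these genes from their sequence alone. Both stretches are 220 bases within 1 coding exon, in GRCm38, and capitals mark the 4 bases at which they differ.
Gimap3, chr6:48765641-48765860, minus strand: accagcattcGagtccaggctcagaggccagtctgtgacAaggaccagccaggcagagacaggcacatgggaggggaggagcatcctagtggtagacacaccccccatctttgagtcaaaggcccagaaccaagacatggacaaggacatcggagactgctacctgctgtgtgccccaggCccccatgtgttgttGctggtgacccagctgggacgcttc
Gimap5, chr6:48752644-48752863, plus strand: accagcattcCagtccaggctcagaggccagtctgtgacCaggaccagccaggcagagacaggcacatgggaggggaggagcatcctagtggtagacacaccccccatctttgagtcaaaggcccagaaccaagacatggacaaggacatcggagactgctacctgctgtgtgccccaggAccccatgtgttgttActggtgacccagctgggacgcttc
The deposited gene lengths exceeded the effective lengths by 48.91 bases, which corresponds to reads of about 50 bases. Of the 2528 different windows of 50 bases in the Gimap3 transcripts, 190 (7.52%) also occurred in Gimap5 transcripts, and 91.9% occurred in no other annotated gene on either strand. Of the 4195 windows of Gimap5, 93.2% occurred in no other gene. Most reads of either gene could therefore be told apart by sequence.

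The remaining members were mostly distinct at this length. Gimap4, Gimap8 and Gimap9 shared 0 windows with any other gene, Gimap6 0.17% and Gimap7 1.39%. Gimap1 was the exception, since 35.5% of its 3116 windows recurred elsewhere. The antisense transcript Gimap1os held 32.4% of the Gimap1 windows and Gm28053 4.78%, the latter being a locus annotated from Gimap7 to Gimap5. Without strand information, reads from Gimap1 and Gimap1os cannot be told apart where they overlap, and the Gimap1 values carry that uncertainty. Expected counts that were not whole numbers, within a tolerance of 0.001, occurred for Gimap1 in 6 libraries, Gimap5 in 5 and Gimap3 in 4, and for the other members in 0.

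Gimap6, which binds the autophagy protein Gabarapl2, was the most abundant member. On the TPM scale, which relates each gene's reads to its length, its mean level was 18.5 ± 9.26 TPM (SD, n = 4) in Young and 15.5 ± 9.88 TPM (SD, n = 3) in Old. The TPM of Gimap6 was above that of Gimap1, the next in order, in 7 of 7 libraries, although their ranges over libraries overlapped. Gimap1, required for the survival of mature lymphocytes, followed at 5.51 ± 2.58 TPM in Young and 7.40 ± 3.88 TPM in Old. Gimap9 came next at 4.99 ± 1.37 TPM and 5.18 ± 2.70 TPM, below Gimap1 in 6 of 7 libraries. Every library held more Gimap9 than any library held Gimap5, a lysosomal member needed for T cell survival, at 1.00 ± 0.361 TPM in Young and 1.22 ± 0.602 TPM in Old. The remaining members, Gimap4, Gimap3, Gimap8 and Gimap7, stayed below 1 TPM in each library and their ranges overlapped. Gimap6, Gimap1 and Gimap9 together made 89.9% to 96.9% of the summed TPM of the family in Young and 78.8% to 92.9% in Old, so the family signal in these cells came mostly from 3 genes.

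**Figure D1:**
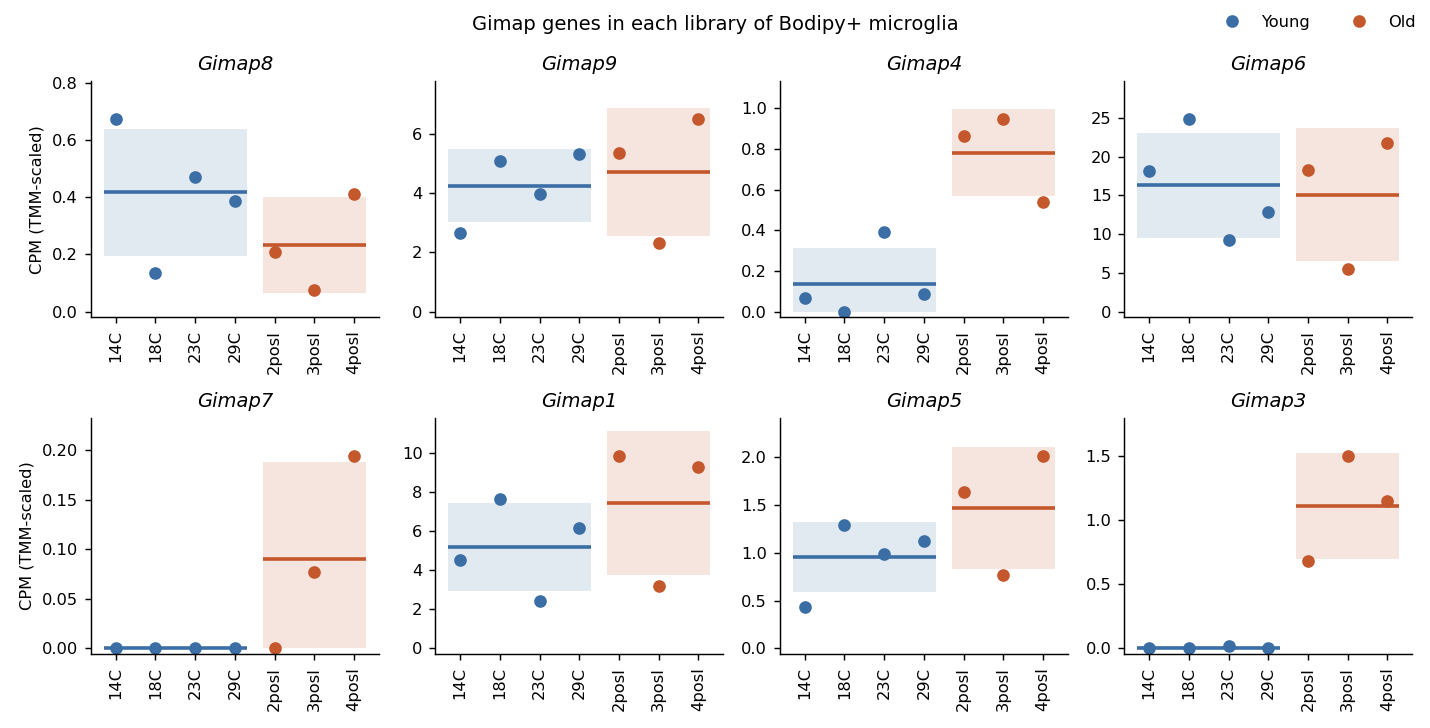
Each panel plots the CPM (scaled by TMM) of 1 Gimap gene, ordered by position on the chromosome, against the 7 libraries. Points are libraries, lines are group means and shaded bands are 1 SD. Gimap3 and Gimap4 are the panels in which every Old point lies above every Young point, and Gimap6, Gimap1 and Gimap9 carry the highest levels.

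Levels between ages were compared as CPM, the counts of a gene relative to the library total, with the totals scaled by TMM. Of the 8 members, 7 passed the filter on low counts, 5 of them had a positive and 2 a negative log2 fold change, and their median was 0.52. In the same fit the median over all 17559 genes was -0.01 and 48.8% of genes were above 0. The only member called at an adjusted p under 0.05 was Gimap3, while 0.803% of all genes were called and 0.57% were called as higher in Old. The same single member was called by limma-voom and by DESeq2. Gimap3 and Gimap4 had every Old library above every Young library, as had 8.7% of all tested genes. Because the members were chosen on this contrast, nothing is read from those counts. The summed CPM of the 8 members was 26.5, 38.9, 17.5 and 26.0 in 14C, 18C, 23C and 29C and 36.9, 14.3 and 41.8 in 2posI, 3posI and 4posI. Means were 27.2 ± 8.83 (SD, n = 4) and 31.0 ± 14.6 (SD, n = 3), with a log2 ratio of 0.19 in CPM and 0.03 in TPM, so the family total overlapped between ages. Gimap6 made up 50.1% to 69.5% of the summed TPM in Young and 36.5% to 53.0% in Old, and Gimap3 0% to 0.111% and 1.14% to 7.22%.

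Gimap3, an outer mitochondrial membrane protein in lymphocytes, had the largest fold change of the tested members. It was at 0 CPM in 14C, 18C and 29C and at 0.0216 CPM in 23C, against 0.685 CPM in 2posI, 1.50 CPM in 3posI and 1.15 CPM in 4posI. The Young libraries were at or near 0 and the Old libraries did not overlap with them. In expected counts the difference rests on 1.10 in 23C and 0 in the other Young libraries, and on 22.98, 58.87 and 53.19 in 2posI, 3posI and 4posI. Pooled and scaled for library size, 135 against 1 counts gave a ratio of 214 with an exact interval of 37.7 to 8500 at 95% confidence, which covers counting error only. The fit gave 7.11 on the log2 scale (SE 0.85), with an adjusted p of 0.0236 by edgeR's quasi-likelihood test over all genes tested. This size depends on the prior count of the fit, edgeR's default rather than the 1 used for log2 CPM, because Young was near 0. Gimap3 passed the filter on low counts through its Old libraries alone, because its Young counts reached at most 1.10. With that filter left out, edgeR's test gave it an adjusted p of 0.00587. Among the 17559 genes kept by the filter, Gimap3 was the 12th by p. The call was lost, at adjusted p between 0.0632 and 0.108, in each fit without 2posI, 14C, 18C, 23C or 29C, and kept without 3posI or 4posI.

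The counts of Gimap3 in Old mice fell mainly on its longer annotated transcript. RSEM's mean length for the gene was that of the 2145-base transcript in 2posI and 4posI, and in 3posI 87.5% of the estimated abundance was on it. The shorter transcript has 1968 bases and starts within the gene. In 23C the single estimated count was placed on the shorter one. Of the windows of 50 bases found in only 1 of these transcripts, 609 in the longer and 432 in the shorter, 0 also occurred in Gimap5.

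Gimap5 itself was at 0.433, 1.29, 0.983 and 1.12 CPM in 14C, 18C, 23C and 29C, and at 1.64, 0.772 and 2.01 CPM in 2posI, 3posI and 4posI. The ages overlapped, with 3posI below 3 of the 4 Young libraries. The log2 fold change of 0.63 (SE 0.48) did not pass the test (adjusted p = 0.508). Of the counts given to either paralog, Gimap3 took 0% in 14C, 18C and 29C, 2.15% in 23C, 29.4% in 2posI, 66.1% in 3posI and 36.4% in 4posI. Since a read of the shared stretch can be divided between them, the paralogs were also summed. Their sum was 0.433, 1.29, 1.00 and 1.12 CPM in 14C, 18C, 23C and 29C against 2.33, 2.28 and 3.16 CPM in 2posI, 3posI and 4posI. Every Old library lay above every Young library, and the fold change of the sum, 1.43 on the log2 scale, did not pass edgeR's test (adjusted p = 0.123).

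**Figure D2:**
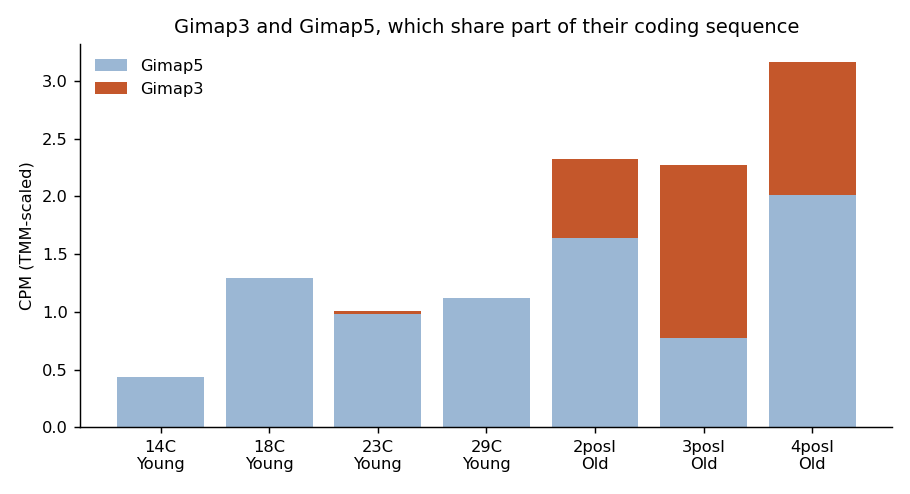
Stacked bars give the CPM (scaled by TMM) of Gimap5 and, above it, of Gimap3 in each library. The Gimap5 segments of the ages overlap, and the Gimap3 segment is visible in the 3 Old libraries and, at 0.0216 CPM, in 23C.

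Gimap4, which promotes the death of activated T cells, was the other member with no overlap between ages. It reached 0.065 CPM in 14C, 0 in 18C, 0.392 in 23C and 0.086 in 29C, against 0.864 CPM in 2posI, 0.946 in 3posI and 0.540 in 4posI. These values come from 3, 0, 20 and 4 counts in Young and 29, 37 and 25 counts in Old. The pooled count ratio was 5.33 (exact 95% interval 3.44 to 8.53, counting error only), and the log2 fold change of 2.48 (SE 0.97) did not pass the test across all genes (adjusted p = 0.217). Gimap7, which can stimulate GTP hydrolysis by its relatives, was at 0 counts in every Young library and at 0, 3 and 9 counts in 2posI, 3posI and 4posI. It stayed below the count minimum of the test, so it has no p. No fold is given for it, since its counts came from 2 Old mice and the count of 3 in 3posI is only at the floor for 1 library.

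The age differences of the abundant members, Gimap6, Gimap1 and Gimap9, were smaller than the larger SD of the groups. Gimap6 measured 18.2, 24.8, 9.22 and 12.9 CPM in 14C, 18C, 23C and 29C and 18.3, 5.47 and 21.7 CPM in 2posI, 3posI and 4posI. Fitted on the log2 scale, the difference was -0.10 with an SE of 0.47 (adjusted p = 0.926), and it turned positive without 3posI (0.30) or without 18C (0.18). Gimap1 measured 4.55, 7.65, 2.41 and 6.17 CPM against 9.85, 3.18 and 9.30 CPM in the same order, with 2 Old libraries above all Young and 3posI below 3 of them. Its log2 fold change of 0.52 (SE 0.46) gave an adjusted p of 0.574. Gimap9 measured 2.64, 5.08, 3.96 and 5.33 CPM in 14C, 18C, 23C and 29C against 5.36, 2.30 and 6.48 CPM in 2posI, 3posI and 4posI. The log2 fold change of Gimap9 came to 0.15 with an SE of 0.38 (adjusted p = 0.864). It was negative without 14C (-0.01), without 4posI (-0.16) and as a difference of mean log2(TPM + 1) (-0.03).

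Gimap8, the largest family member, with several GTPase domains, had the most negative log2 fold change of the tested members. It was at 0.671, 0.134, 0.471 and 0.387 CPM in 14C, 18C, 23C and 29C and at 0.209, 0.0767 and 0.410 CPM in 2posI, 3posI and 4posI. The ages overlapped, and the log2 fold change of -0.82 (SE 0.75) did not pass the test (adjusted p = 0.581). By counts the Old to Young ratio was 0.581 (exact 95% interval 0.366 to 0.9, counting error only), from 29 against 79 counts.

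**Figure D3:**
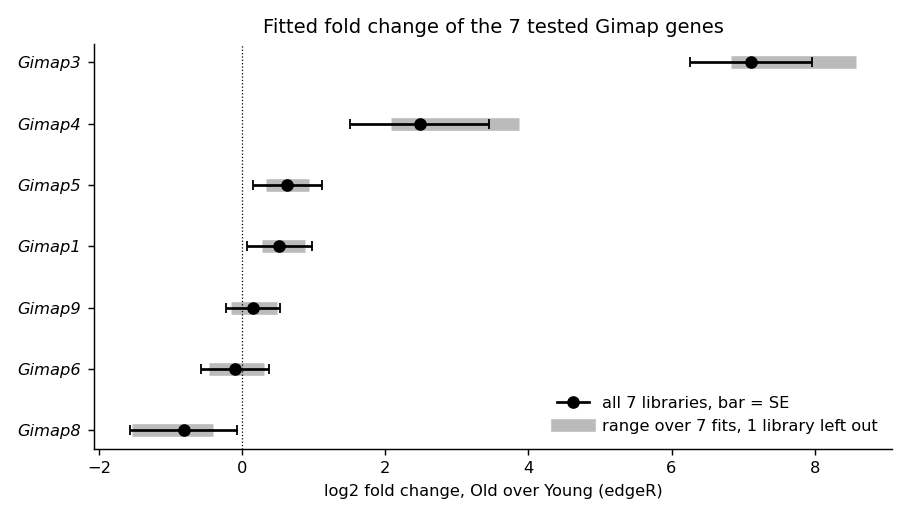
Points give the fitted log2 fold change (Old over Young, edgeR) of the 7 tested Gimap genes, black bars the SE and grey bars the range over 7 fits that each leave out 1 library. Gimap3 ranges from 6.83 to 8.58 and Gimap4 from 2.08 to 3.87, and the grey bars of Gimap6 and Gimap9 span 0.

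Members differed in which libraries held most of them. Over the 7 libraries the log2 CPM of Gimap5 and Gimap9 had a Pearson r of 0.87, Gimap3 and Gimap4 of 0.84 and Gimap1 and Gimap6 of 0.79. Within ages, after the age means were removed, these values were 0.95, 0.54 and 0.90, and Gimap1 and Gimap3 were at -0.84. These are descriptions of 7 points from shared libraries, and Gimap3 and Gimap4 rest on few counts in Young. The genes whose log2 CPM followed the mean profile of the family most closely were Exosc10 (r = 0.979), Smc6 (0.979), Fam8a1 (0.977), Eif5a2 (0.968) and Rock2 (0.964), out of 9589 genes with a mean of at least 5 CPM. After the age means were removed they were Vegfb (0.999), Pxdc1 (0.996), Dnph1 (0.996), Racgap1 (0.993) and Btbd9 (0.991). The rankings shared no gene among these. The profile averaged centred log2 CPM without scaling, so members with the widest range weighed most. Gimap3 ran from -5.54 to 0.61 and Gimap4 from -5.48 to -0.04. The profile was lowest in 18C (-0.72), where Gimap6 was highest (4.63). The profile ran from -0.72 to -0.31 in Young and 0.08 to 1.12 in Old, so it largely repeats the age contrast. High r values arise by selection among 9589 genes over 7 libraries, so nothing is read from either ranking.

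Marker genes of other cells were read beside the members, because GIMAP proteins are typical of lymphocytes. The study defined microglia as CD11b+ cells low in CD45, whereas lymphocytes mostly lack CD11b and are high in CD45. Monocytes can also be high in CD45, and how far the gate kept such cells out was not tested. No antibody specific to lymphocytes was named for the sort. Microglial genes were abundant in every library, with 21300 to 30800 summed CPM of 8 markers in Young and 10800 to 24100 in Old. Their median log2 fold change was -0.40 (-0.13 without 3posI), 0 were called by edgeR or limma-voom, 1 had an unadjusted p under 0.05 and DESeq2 called 1, Fcrls. Such results were frequent over all 17559 genes. Gimap4, at an unadjusted p of 0.0314 in edgeR's test, ranked 2541st, so at least 2541 genes were under 0.05, and DESeq2 called 1399. Counts at these cuts, here and for the lists below, are therefore descriptions only. The 2 libraries lowest in P2ry12, a purinergic receptor of resting microglia, were 3posI at 341 CPM and 23C at 441 CPM, against 1120 CPM or more elsewhere. The same 2 libraries were the lowest in Tmem119 and in Sall1, both microglial genes, and also in Gimap6 and Gimap1. Gimap9 was lowest in 3posI and next in 14C. In 3posI the 7 monocyte markers summed to 2170 CPM, against 101 and 128 CPM in the other Old libraries and 22.0 to 92.3 CPM in Young, and their part in the lower Gimap6, Gimap1 and Gimap9 values was not tested. In bulk samples, fewer cells of a type and less RNA per cell cannot be told apart.

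T cell genes were read beside Gimap3 and Gimap4. Of 12 T cell genes, 0 passed edgeR's test, although 10 had an unadjusted p under 0.05 and DESeq2 called 3 (Lck, Cd2 and Trac). Their median log2 fold change was 4.10 (3.55 without 3posI), 11 were above 0, and 6 had every Old library above every Young library. Summed, they reached 7.68 to 10.6 CPM in Young and 9.79 to 13.6 CPM in Old, mostly from Cd5 and Cd28. Cd8a, a coreceptor of cytotoxic T cells, was at 0 CPM in 14C, 18C and 29C and 0.0196 in 23C, against 0.284 in 2posI, 0.256 in 3posI and 0.518 in 4posI. Its adjusted p in edgeR was 0.0565. 23C was the 1 Young library with a count for both Cd8a and Gimap3, but these were 1 and 1.10 counts, below the floor of 3 counts. Cd3e, a chain of the T cell receptor complex, was at 0 CPM in 2posI, where Gimap3 reached 0.685 CPM, and at 0.562 and 0.453 CPM in 3posI and 4posI. Cd3d, Cd3g and Trbc2 were also at 0 CPM in 2posI, while the other T cell genes of the list had counts there. Gimap7 was likewise at 0 in 2posI and present in 3posI and 4posI. Monocyte markers also summed higher in every Old library (101 to 2170 CPM) than in any Young library (22.0 to 92.3 CPM). Of 7 monocyte and 7 dendritic cell genes, 4 and 2 had every Old library above every Young library. 3posI, highest in the monocyte sum, was also highest in Gimap3 and Gimap4. The part of T cell, monocyte or dendritic cell transcripts in the Gimap3, Gimap4 and Gimap7 values was not tested.

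**Figure D4:**
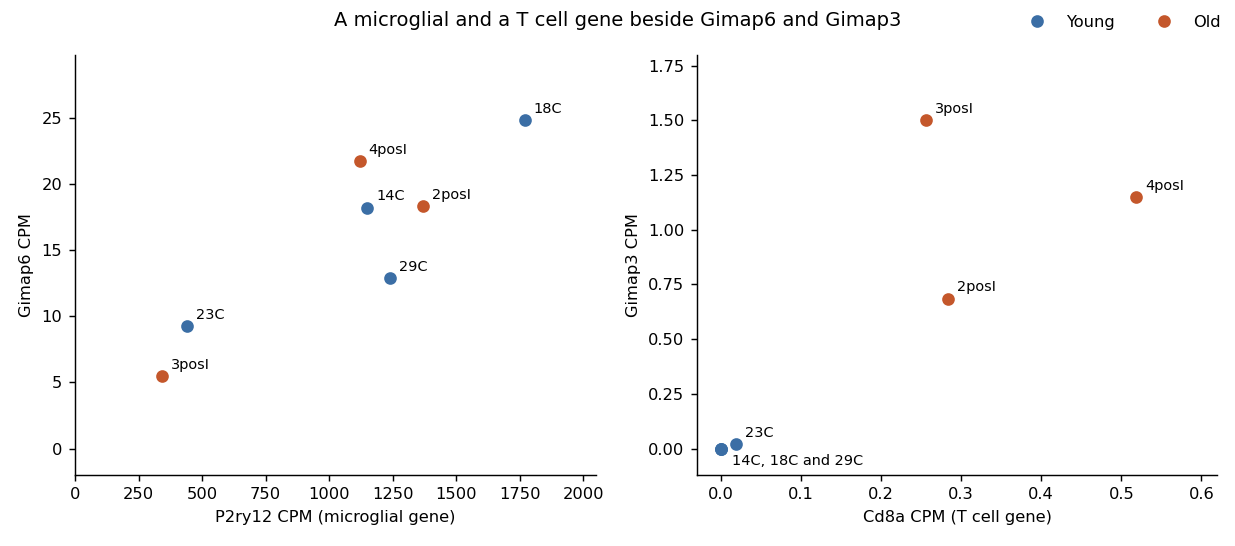
The left panel plots Gimap6 CPM against P2ry12 CPM, and the right panel Gimap3 CPM against Cd8a CPM, with 1 point per library. 3posI and 23C are lowest on both axes of the left panel. In the right panel the 3 Old libraries lie between 0.685 and 1.50 CPM of Gimap3 and between 0.256 and 0.518 CPM of Cd8a. The Young libraries lie at or near 0. Cd8a is 1 of 6 genes, among 12 T cell genes, with every Old library above every Young library. Cd3e, Cd3d, Cd3g and Trbc2 were at 0 CPM in 2posI.

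The other marker lists were counted in the same way. Of 8 NK cell genes 6 were tested and 0 passed (median log2 fold change 0.54, or -0.06 without 3posI), with 0.534 to 1.71 summed CPM in Young and 0.507 to 4.04 in Old. An unadjusted p under 0.05 was reached by 1, and DESeq2 called 1, Nkg7. Of 8 B cell genes 6 were tested and 0 passed (median 0.28, or 0.16 without 3posI), with 130 to 257 summed CPM in Young and 135 to 369 in Old and Pax5, the B lineage factor, at 0 in every library. None of these B cell genes had an unadjusted p under 0.05 or a call by limma-voom or DESeq2. Endothelial cells also express Gimap genes, and of 9 endothelial genes 1 had a positive log2 fold change and the others a negative one. The transporter Slco1a4 was called as lower in Old by edgeR (log2 fold change -1.66; adjusted p = 0.028), limma-voom and DESeq2. An unadjusted p under 0.05 was reached by 4, and DESeq2 also called Pecam1, an adhesion molecule of endothelium (edgeR log2 fold change -0.69; adjusted p = 0.102). Both genes had every Old library below every Young library. The endothelial median was -0.69 (-1.04 without 3posI), with 71.9 to 135 summed CPM in Young and 53.9 to 78.8 in Old. Median log2 fold changes were 3.87 over 7 monocyte, 1.11 over 7 neutrophil, 2.00 over 7 dendritic cell, 0.64 over 6 border-associated macrophage and 0.45 over 5 tested genes of other brain cells, with 0 called in these lists by edgeR. At an unadjusted p under 0.05 they held 6, 1, 5, 0 and 0 genes, DESeq2 called 3, 0, 1, 0 and 0 of them and limma-voom 1 dendritic cell gene, Cd209a. Without 3posI edgeR called 1 of these genes, the monocyte gene Ly6c2, and the medians were 1.17 for monocytes, 0.75 for neutrophils, 0.85 for dendritic cells, 0.13 for border-associated macrophages and 0.66 for other brain cells.

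Genes of known GIMAP partners were examined next. Of 13 partner genes, from autophagy (such as Gabarap, Gabarapl2 and Map1lc3b), from the Bcl2 family and the kinase Gsk3b, 13 were tested and 0 were called by edgeR or limma-voom, with 7 positive fold changes and a median of 0.07. An unadjusted p under 0.05 was reached by 2, and DESeq2 called 1, Bax. Over all 17559 genes, at least 2541 reached such a p in edgeR's test and DESeq2 called 1399. Bax, which permeabilizes mitochondria in apoptosis, was at 140, 129, 154 and 148 CPM in 14C, 18C, 23C and 29C and 197, 249 and 174 CPM in 2posI, 3posI and 4posI. In edgeR its fold change of 0.53 on the log2 scale had an SE of 0.15 and an adjusted p of 0.123. Gabarapl2, the partner of Gimap6, had a log2 fold change of 0.24 (adjusted p = 0.301), with every Old library above every Young library. Bcl2, which keeps mitochondria intact, had a log2 fold change of -0.04 (adjusted p = 0.956).

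Of 16 genes of lymphocyte quiescence and its transcription factors, 16 were tested and 0 were called by edgeR or limma-voom, with 9 positive fold changes and a median of 0.14. An unadjusted p under 0.05 was reached by 10, and DESeq2 called 4 (Il7r, Lef1, Klf2 and Runx3). Klf2, a factor of resting T cells that endothelial and myeloid cells also express, fell short of edgeR's threshold at -1.58 on the log2 scale (SE 0.40, adjusted p 0.101), with every Old library below every Young library. Il7r, the receptor that sustains T cells, was at 1.88 (adjusted p = 0.131) and highest in 3posI. Other factors of T lineages lay on both sides of 0, and none of them passed edgeR's test. Gata3 was at 4.47 (adjusted p = 0.0936), from 6 to 18 counts in each Old library, and Runx3 at 3.40 (adjusted p = 0.101), with 45.7 CPM in 3posI against 6.88 and 5.25 CPM in 2posI and 4posI. Both had every Old library above every Young library. Lef1 was at -1.37 (adjusted p = 0.131) with every Old library below every Young library, and Bach2, a repressor that keeps lymphocytes resting, was at -0.44 (adjusted p = 0.2) with overlap. Ets1, which is expressed in lymphocytes and endothelium, was at -0.43 (adjusted p = 0.524).

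The genes around the cluster were read for comparison with Gimap3. Within 300 kb, or inside the cluster, 43 other genes are annotated, 18 were tested and 0 were called by edgeR, limma-voom or DESeq2, with 6 positive fold changes and a median log2 fold change of -0.26. An unadjusted p under 0.05 was reached by 2 of them, against at least 2541 of all 17559 genes. Tmem176b and Tmem176a, the nearest tested genes beyond Gimap3, were at -0.10 (adjusted p = 0.84) and -0.04 (adjusted p = 0.941). Repin1, before the cluster, was the 1 neighbour without overlap, lower in every Old library, at -0.50 (adjusted p = 0.158). The overlapping loci Gm28053 and Gimap1os had log2 fold changes of 1.43 (adjusted p = 0.571) and 1.55 (adjusted p = 0.565), from at most 27.38 and 11.47 counts in a library, both in 4posI.

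**Figure D5:**
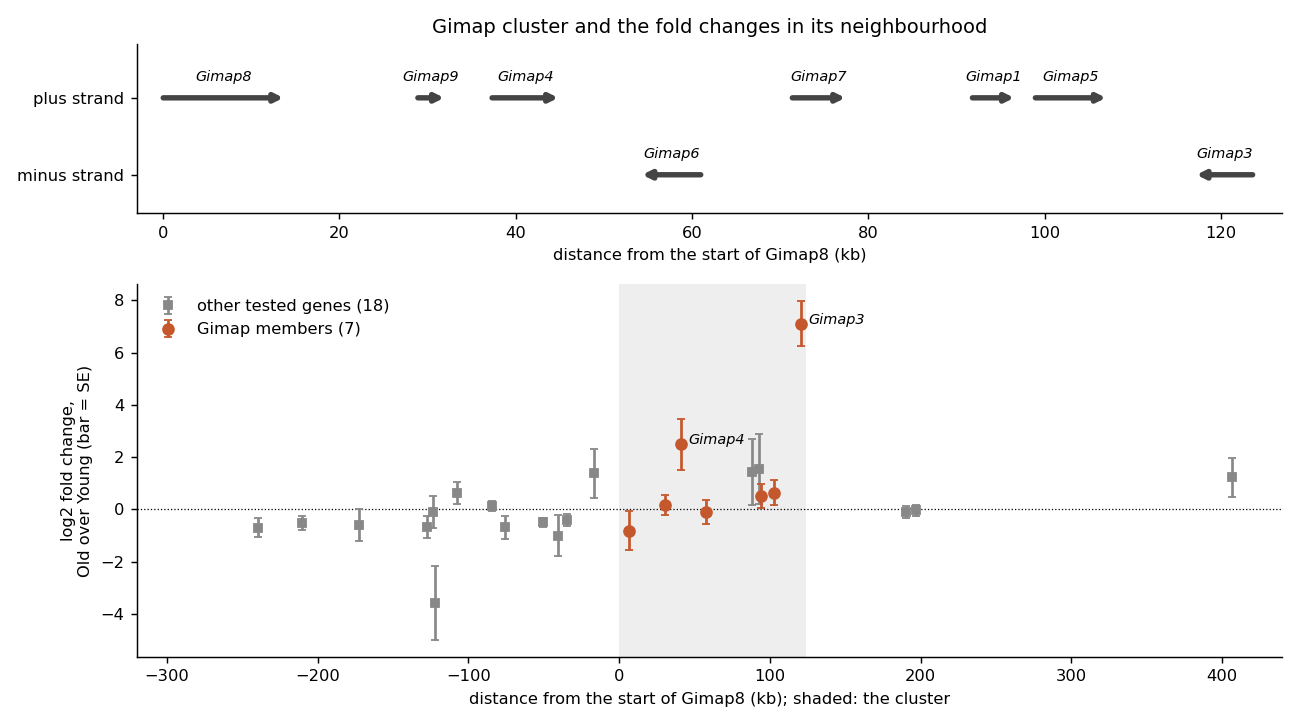
The upper panel maps the 8 Gimap genes by distance (kb) from the start of Gimap8, with arrows showing the direction of transcription. The lower panel plots the log2 fold change with its SE of the 7 tested members and 18 other tested genes within 300 kb. Gimap3, at the end of the shaded cluster, lies above all the others at 7.11.

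None of 6 transcription factor motifs searched was common to all members. RefSeq promoters in GRCm38.p6 matched 8 of 8 members, with 9 start sites, and the 250 bases before each were searched on both strands. The 150 bases before the start of Gimap3 and Gimap4, which did not overlap between ages, and of Gimap6 and Gimap1, the most abundant members, are given to let them be compared, with matches to the motifs in capitals.
Gimap3, chr6:48770852-48771001, minus strand: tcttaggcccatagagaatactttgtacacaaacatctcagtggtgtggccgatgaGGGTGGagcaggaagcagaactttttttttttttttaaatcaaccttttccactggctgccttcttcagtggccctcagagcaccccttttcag
Gimap4, chr6:48684428-48684577, plus strand: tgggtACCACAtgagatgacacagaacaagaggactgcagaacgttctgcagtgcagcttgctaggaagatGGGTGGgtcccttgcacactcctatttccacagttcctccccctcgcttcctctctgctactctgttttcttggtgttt
Gimap6, chr6:48708245-48708394, minus strand: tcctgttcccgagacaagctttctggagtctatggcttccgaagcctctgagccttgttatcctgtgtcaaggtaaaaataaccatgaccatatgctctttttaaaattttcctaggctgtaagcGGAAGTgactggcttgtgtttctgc
Gimap1, chr6:48738897-48739046, plus strand: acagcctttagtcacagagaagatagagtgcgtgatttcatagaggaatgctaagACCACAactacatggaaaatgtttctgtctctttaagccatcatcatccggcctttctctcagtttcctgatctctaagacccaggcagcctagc
The KLF motif GGGTGG was found for Gimap3, Gimap4, Gimap5, Gimap8 and Gimap9 and in 28.1% of all 32851 promoters. The RUNX motif TGTGGT was found for Gimap1, Gimap4 and Gimap7 and in 14.0% of promoters. The ETS motif GGAAGT was found for Gimap5 and Gimap6 and in 19.7% of promoters. The motif AGATAA of GATA factors, in 9.99% of promoters, matched 0 members. So did CTTTGA of TCF and LEF factors, in 13.8% of promoters. The motif GAAANNGAA of IRF factors, in 7.13% of promoters, matched 0 members as well. The Gimap3 sequence lies before the start of the 2145-base transcript, the one that held most Old counts. A match is a description of letters and does not show a bound site.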

How the data were processed

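RNA of Bodipy+ microglia was measured in 7 libraries, grouped by the age in the sample labels. The occlusion and its day come from the study's methods. The authors trimmed reads (skewer), mapped them to GRCm38 (STAR) and deposited RSEM expected counts and TPM on GENCODE m15, with no normalization of the expected counts and TPM scaled within each library. The authors also deposited an effective length per gene. FastQC 0.11.5 is named in the submitters' processing notes, while aligner and quantifier versions were not given in the sources used here. No molecular identifiers are named, so intervals cover counting error only. The depth is 36574083 to 53002386 expected counts.

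Expected counts were rounded. Genes needed a count above 10 in at least 1 library, and 614 of these 18173, on chromosomes X, Y or M, were removed, which left 17559. edgeR 4.0.16 (R 4.3.3) gave TMM factors (0.952 to 1.05) and the quasi-likelihood test of age, with Benjamini-Hochberg adjustment over all genes, a threshold of 0.05 and a prior count of 1 for log2 CPM. The biological coefficient of variation was 37.2%. SE is the log2 fold change divided by the root of the F statistic. Alternatives were limma-voom (limma 3.58.1), DESeq2 1.42.0, other factors, filters and units, an effective-length offset, the paralogs summed, and each library left out. The tests were tested on simulated data. The authors' FPKM values were not used. Positions, coding sequences and transcript windows came from GENCODE vM21, which held 50462 of the 50686 identifiers.

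The members and lists were chosen with earlier results of these data known. All 8 members are described, with every gene list by its counts. p-values measure the spread between mice, 1 per library.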

Additional observations from a re-analysis of the deposited data

Results flagged for a closer look

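Gimap3 in the Young group had 1 library apart from the rest. The gap from 23C, at 0.0216 CPM, to the other Young libraries, at 0 CPM, made up the whole range of the group, a share of 1.0. The signal is 1.10 expected counts, below the floor of 3 counts. With the other 3 libraries at 0, any value above 0 gives this share, so it says nothing beyond the presence of that signal.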

How the results depend on the processing

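The number of members past the threshold was 1 in the 8 other settings of the fit and 0 to 1 when 1 library was left out. Gimap3 gave log2 fold changes of 6.83 to 8.58 without 1 library, and was past the threshold in 2 of those 7 fits. In the remaining alternatives it was past the threshold in 9 of 9 tests, and the difference of mean log2(TPM + 1) was 0.75. Members with a positive fold change numbered 4 to 6 without 1 library and 5 to 6 otherwise, against 5. The log2 ratio of the summed level ran from -0.09 to 0.53 without 1 library and from 0.03 to 0.20 otherwise. The signs of Gimap6 and Gimap9 turned, and the cause was not tested. Without 1 library Gimap6 ran from -0.46 to 0.30 (0.30 without 3posI, 0.18 without 18C) and Gimap9 from -0.16 to 0.48 (-0.16 without 4posI, -0.01 without 14C), and Gimap9 was at -0.03 in TPM. Over all genes, 141 were called by edgeR, 143 by limma-voom and 1399 by DESeq2, and 1 to 159 without 1 library. Members under 1 CPM rest on few counts. No paired analysis was possible because the labels give no replicate numbers shared between the ages.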
